A study of Homo sapiens with 2 samples.

Results

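MIR17HG, RP1-45I4.2, SUZ12P1, LINC00969 and LINC-PINT are 5 long non-coding RNAs (lncRNAs) that the study went on to measure by qRT-PCR after its array experiment. They were selected on that follow-up, with their signals and differences on these 2 arrays already known, through probes that carry the study's own symbol for the RNA or hold the sequence of one of its primers or siRNAs. They had 7 of the 77162 non-control probes of the array and 17 of its 175556 non-control spots. The cells were LNCaP, an established human prostate cancer line that depends on androgen. They had been starved of hormone in charcoal-stripped serum, and RNA was taken at 0 h or 2 h after 10 nM dihydrotestosterone (DHT), a potent natural androgen. The labels name the dose for both samples, and the study treats 0 h as the state before DHT. There was 1 array per condition and no array of cells kept for 2 h without DHT, so time in culture and DHT cannot be told apart, no value has a replicate culture and no test was made. In total RNA from a whole culture, expression in fewer cells and less RNA in each cell cannot be told apart either. The identity of the cells was not checked on the arrays, because 0 probes held a primer of the markers KLK3, TMPRSS2 or KLKP1.

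Androgens are steroid hormones that raise or lower the transcription of many genes in prostate cells, and lncRNAs are among the transcripts whose levels they are known to change. The 5 RNAs have different backgrounds. MIR17HG is the host transcript of the miR-17-92 cluster, a group of microRNAs known as oncogenic in lymphoma and other cancers. SUZ12P1 is a transcribed pseudogene of SUZ12, a core subunit of Polycomb repressive complex 2, which places a silencing methyl mark on histone H3. LINC-PINT is a lncRNA induced by p53 and known to act together with that same complex. LINC00969 is named MIR570HG in RefSeq, as the host of another microRNA. RP1-45I4.2 bears the name of the genomic clone in which it was annotated.

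The probe sequences are shown because they decide which stretch of each RNA the array measured and how that stretch relates to the qRT-PCR. They come from the deposited array files and are written 5′ to 3′ in lower case, with bases of a primer or siRNA of the study in capitals. The first is MIR17HG on chromosome 13 (probe A_33_P3313622), where the capitals are 17 of the 19 bases of the forward primer.
MIR17HG: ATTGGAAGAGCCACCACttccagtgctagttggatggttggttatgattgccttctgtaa
The RP1-45I4.2 probe on chromosome 6 (oebiotech_00863) held all 22 bases of the forward primer, at its bases 13 to 34.
RP1-45I4.2: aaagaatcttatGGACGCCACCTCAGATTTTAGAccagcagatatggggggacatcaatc
The LINC00969 probe on chromosome 3 (A_19_P00317653) held all 21 bases of the forward primer, at bases 32 to 52.
LINC00969: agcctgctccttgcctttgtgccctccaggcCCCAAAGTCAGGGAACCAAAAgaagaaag
The LINC-PINT probe on chromosome 7 (oebiotech_16854) is the last 60 bases of a stretch of 155 bases covered by 5 overlapping probes. The capitals, at bases 123 to 143, are the 21 bases to which the reverse primer binds, its reverse complement.
LINC-PINT: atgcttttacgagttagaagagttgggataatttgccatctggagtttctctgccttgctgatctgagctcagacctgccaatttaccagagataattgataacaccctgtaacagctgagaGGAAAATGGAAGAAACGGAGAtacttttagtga
For SUZ12P1 on chromosome 17, probe A_21_P0000506 is the last 60 bases of a stretch of 98 bases that it forms with probe oebiotech_16220, and no primer or siRNA lies in it.
SUZ12P1, listed probe: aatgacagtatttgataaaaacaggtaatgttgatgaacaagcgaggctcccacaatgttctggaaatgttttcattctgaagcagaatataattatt
The other pair of SUZ12P1 probes, A_33_P3332690 and A_33_P3370461, share 54 bases and together cover 66 bases, which hold all 19 bases of 1 of the 3 siRNAs against SUZ12P1.
SUZ12P1, siRNA probes: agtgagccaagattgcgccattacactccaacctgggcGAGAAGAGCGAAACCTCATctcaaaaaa
This last stretch resembles the end of an Alu element, a repeat found in many human transcripts, and both probes may also bind RNA of SUZ12, so their values are uncertain for SUZ12P1. In all, 4 of the 10 qRT-PCR primers of the 5 lncRNAs were held by a probe, and neither primer of SUZ12P1 was. None of the probes bears on the microRNAs themselves: RefSeq places 6 microRNA genes in MIR17HG, and 0 probes shared 16 or more bases with 1 of their hairpins.

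On the quantile-normalized arrays, MIR17HG, the listed probe of SUZ12P1 and LINC-PINT were higher at 2 h, RP1-45I4.2 and LINC00969 were lower, and the siRNA probes of SUZ12P1 lay between. Quantile normalization, the method of the study, gives both arrays the same distribution of signals, and each difference below is the log2 signal at 2 h minus that at 0 h. Detection of a probe required that 0.5 or more of its spots on the array stood well above background. By their signals, 3 of the 7 probes were at least 2-fold higher at 2 h, where 27.9% of the 32445 probes detected on at least 1 array were, and 1 was at least 2-fold lower, where 13.1% were. Where a probe was detected at 2 h only, its fold is also given as a lower bound. Its 0 h side is the higher of the probe's own signal and the lowest signal of a detected probe at 0 h, 5.65. Some probes not detected at 0 h had a log2 signal above that, for example 6.85. The bound, and the words "at least" where they rest on it, therefore hold for that floor and are not strict minima. By lower bounds, 2 of the 7 were at least 2-fold higher and 1 lower, where 14.9% and 11.9% of all were. By their signals the 7 differences had a median of 0.80, beside 0.16 for all detected probes. With the bound in place of the signal where a probe was detected at 2 h only, the 7 ran from -1.55 to 1.47 with a median of 0.36. No median of bounds over all probes stands beside it. Both medians are values of the siRNA probes of SUZ12P1, which share most of their bases and yet count as 2 of the 7 here. The probes were chosen with these values known, so the counts only describe them.

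**Figure D1:**
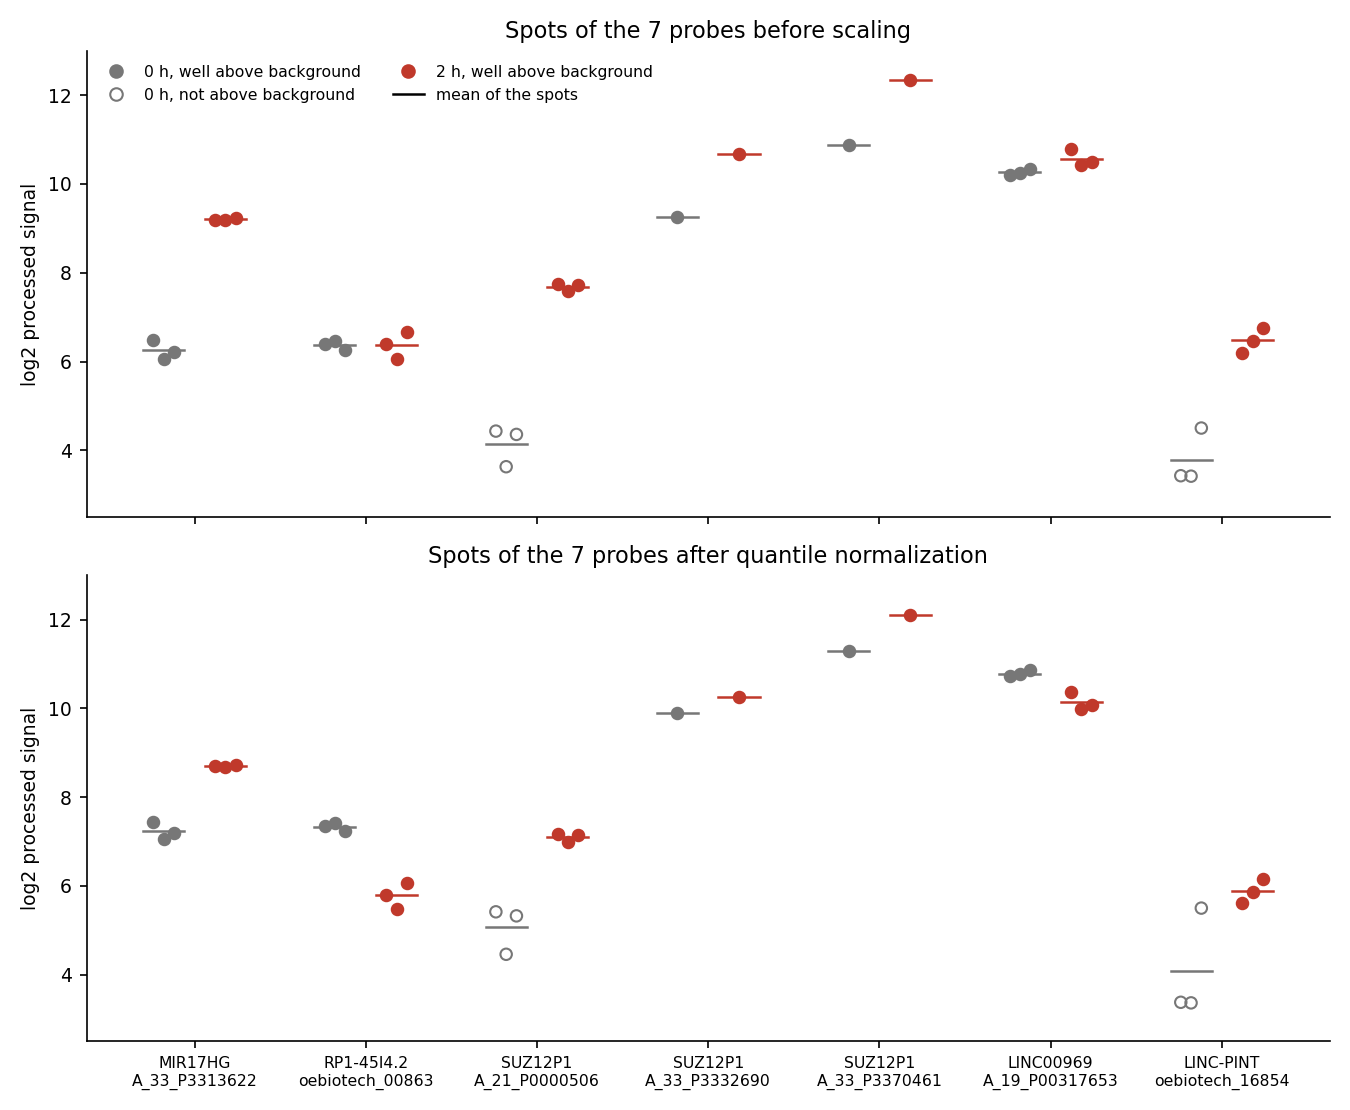
Log2 processed signal of each spot of the 7 probes (x axis) before scaling (top) and after quantile normalization (bottom), with 0 h in grey, 2 h in red, open circles for spots not above background and a line at the mean of the spots. The spots of RP1-45I4.2 overlap before scaling and separate after it, while those of MIR17HG are apart in both panels.

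MIR17HG gave the clearest rise among the probes detected on both arrays. Its 3 spots had processed signals, the background-corrected intensity before any scaling, of 89.4, 67.2 and 74.3 at 0 h and of 585, 582 and 599 at 2 h. The spots of the arrays did not overlap, and all 6 were well above background. After quantile normalization the log2 signal was 7.23 ± 0.18 at 0 h and 8.71 ± 0.02 at 2 h (SD over 3 spots of 1 array), a difference of 1.47 or 2.78-fold. This SD reflects spot noise within an array and leaves out every step from the culture to the labelling. Taken spot by spot at the same place on the arrays, the difference ran from 1.26 to 1.62. It exceeded the difference of 81.4% of all detected probes. MIR17HG was the only one of the probes detected on both arrays that was at least 2-fold higher under each of the 10 scalings compared, with log2 differences from 1.14 with a model-based background correction (normexp) to 3.34 with a shift to the spike-in probes.

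RP1-45I4.2 was the only one of the 7 probes past 2-fold lower, and that fall was not present before scaling. Its processed signals were 84.3, 88.0 and 76.8 at 0 h and 84.3, 67.1 and 102 at 2 h. The spots overlapped completely, with an error of 12.2 to 14.4 that the scanner software attaches to each, and the log2 difference before scaling was 0.0055. The first spot shows how this came about: a processed signal of 84.3 on either array became a log2 signal of 7.36 at 0 h and of 5.80 at 2 h. After quantile normalization the probe went from 7.34 ± 0.09 to 5.79 ± 0.29 (SD over 3 spots), a difference of -1.55 or 2.93-fold lower. It was lower under 8 of the 10 scalings and past 2-fold lower under 5. With no scaling the spot-by-spot differences ran from -0.39 to 0.41, and with a shift to the spike-in probes, the control RNAs added to each sample, the log2 difference was 0.40. Relative to the median of all detected probes it was -1.71 with quantile normalization, -1.38 with loess and -0.98 with normexp. It was -1.52 with no scaling, a distance that no shift of a whole array can change. That median was 0.16 with quantile normalization. It mainly pools probes detected on both arrays, whose median was -0.29, and at 2 h only, whose median was 1.06. RP1-45I4.2 was detected on both arrays, and lay at -0.60 from the loess curve through such probes, described below.

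LINC00969 had a small difference whose direction depended on the scaling. Its processed signals were 1173, 1219 and 1299.7 at 0 h and 1765, 1376 and 1446 at 2 h. Each spot was brighter at 2 h, and the arrays did not overlap, with a log2 difference of 0.31. After quantile normalization the order turned: the log2 signal was 10.78 ± 0.07 at 0 h and 10.14 ± 0.21 at 2 h (SD over 3 spots), a difference of -0.64 or 1.55-fold lower, again without overlap. The probe was past 2-fold lower when the arrays were shifted to an equal 75th percentile over all spots, at -1.34, and past 2-fold under none of the other 9 scalings. It was higher with no scaling and with a shift to the spike-in probes, at 0.71, and near 0 with a shift to the GAPDH and PGK1 controls, at -0.07. Relative to the median of all detected probes it was -0.79 with quantile normalization, -0.70 with normexp, -1.31 with loess and -1.22 with no scaling or any shift. LINC00969 was detected on both arrays, and the median of such probes alone was -0.29 with quantile normalization. From the loess curve through such probes it lay at -0.53.

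**Figure D2:**
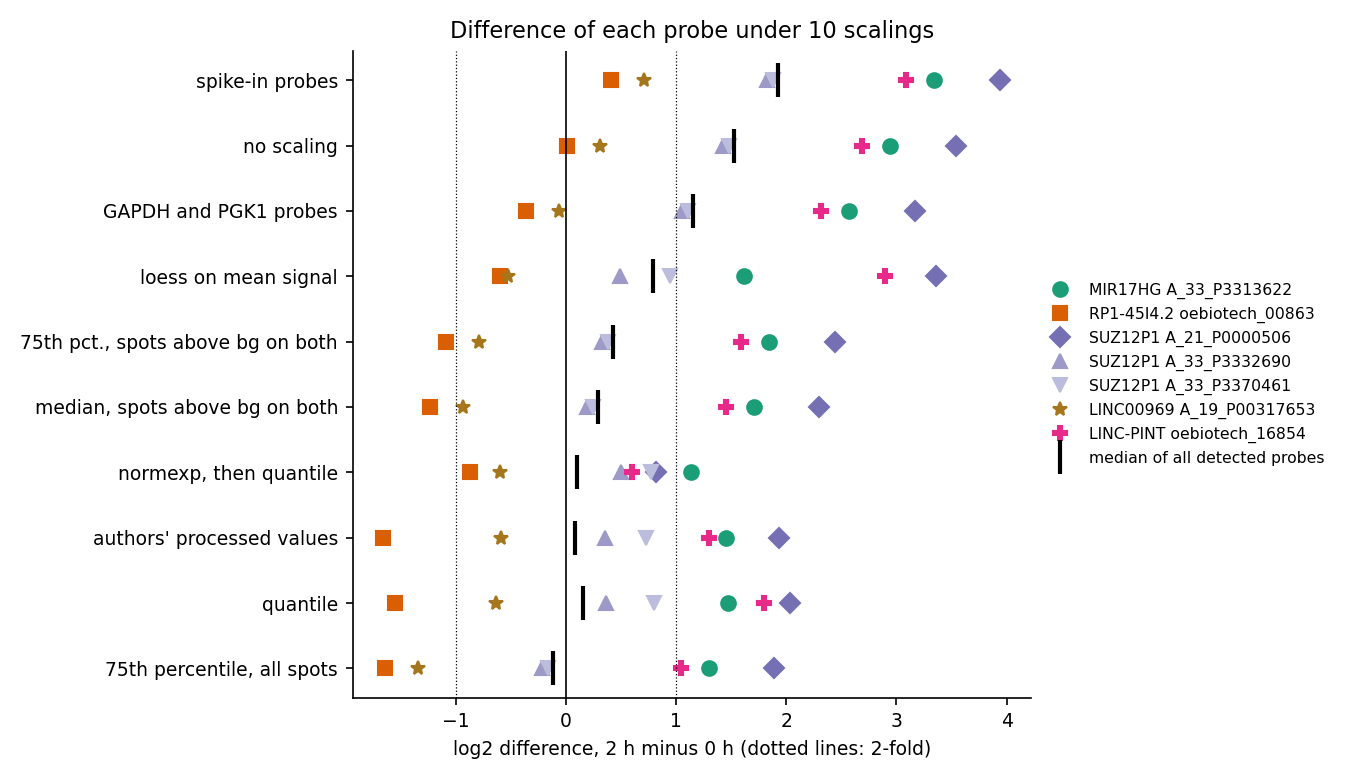
Log2 difference between 2 h and 0 h (x axis) of each of the 7 probes under 10 ways of scaling the arrays (y axis, bg for background), with a black bar at the median of all detected probes and dotted lines at 2-fold. RP1-45I4.2 lies between -1.66 with the authors' processed values and 0.40 with the spike-in probes, and MIR17HG between 1.14 and 3.34. In 6 of the rows the symbols and the bar only slide together, because those rows differ by a shift of a whole array.

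SUZ12P1 had a listed probe that was well above background at 2 h only and a pair of siRNA probes with small differences. Probe A_21_P0000506 had processed signals of 21.6, 12.4 and 20.5 at 0 h, none of them well above background, and of 216, 191 and 210.5 at 2 h, all well above it. The spots did not overlap. After quantile normalization the log2 signal was 5.07 ± 0.53 at 0 h and 7.10 ± 0.10 at 2 h (SD over 3 spots), and the probe was at least 2.73-fold higher, a log2 difference of at least 1.45 where the signals themselves gave 2.03. The bound fell below 2-fold, to 0.53 with normexp, to 0.60 with the median of the spots and to 0.48 when detection asked for all spots. Probe oebiotech_16220, which overlaps it by 22 bases and was found after the values had been seen, was also detected at 2 h only. It went from 4.73 to 6.38 and was at least 1.66-fold higher, with no bound when detection asked for all spots or the median of the spots was taken. The bound of the listed probe was past 2-fold under 9 of the 10 scalings.

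The siRNA probes of SUZ12P1 have 1 spot each and hence no spread. A_33_P3332690 had a processed signal of 609.5 at 0 h and 1637 at 2 h, and A_33_P3370461 had 1871 and 5228. Both spots were brighter at 2 h before scaling, by 1.42 and 1.48 on the log2 scale, which is close to the median of 1.53 for all detected probes. The loess curve through probes detected on both arrays, described below, stood lower at their mean signals, at 0.94 and 0.54. After subtracting it the differences were 0.49 and 0.94. After quantile normalization the log2 signals went from 9.90 to 10.26, a difference of 0.36 or 1.28-fold, and from 11.29 to 12.09, a difference of 0.80 or 1.74-fold. They were past 2-fold higher under 3 of the 10 scalings and lower under 1, the one that equalized the 75th percentile over all spots, at -0.22 and -0.16. The pair shares 54 bases and counts as 1 measurement.

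LINC-PINT was not detected at 0 h and lay close to background at 2 h. Its processed signals were 10.8, 10.71 and 22.7 at 0 h, the lower pair being values that the software substitutes for spots without signal, and 73.5, 88.1 and 109 at 2 h. No 0 h spot was well above background and all 3 were at 2 h. After quantile normalization the log2 signal was 4.08 ± 1.23 and 5.88 ± 0.28 (SD over 3 spots), a difference of 1.80 by signal, but the probe was at least 1.17-fold higher, since at 2 h it was only 0.23 above the lowest detected signal of the 0 h array. Its bound was past 2-fold under 4 of the 10 scalings and under 2-fold at 3. At the other 3, the 75th percentile over all spots, normexp and the authors' processed values, its 2 h signal did not exceed the lowest detected signal at 0 h and no rise could be bounded. The same held when detection asked for all spots and with the median of the spots.

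The 4 other probes of the stretch, found after the values had been seen, rose further above background. Going towards the 5′ end, they begin 42, 58, 68 and 95 bases before the LINC-PINT probe. None was detected at 0 h and all 4 were at 2 h. Probe oebiotech_16613 went from 4.01 to 7.17 on the log2 scale and was at least 2.85-fold higher, and oebiotech_16828 went from 5.00 to 7.84 and was at least 4.56-fold higher. Probe A_19_P00318715 went from 5.23 to 8.21 and was at least 5.88-fold higher, and A_19_P00322977 went from 4.54 to 7.54 and was at least 3.69-fold higher. All 4 were past 2-fold by lower bounds, beside the 14.9% of all probes given above. That share is over 32445 probes, 19321 of them detected on both arrays, whereas these 4 were detected at 2 h only. It is not a like-for-like comparison, and the count only describes these probes. Under each of the 10 scalings oebiotech_16828 and A_19_P00318715 were past 2-fold by their bounds. With normexp the bound was 0.60 for oebiotech_16613 and 0.87 for A_19_P00322977, and when detection asked for all spots it was 0.54 and 0.91. With the median of the spots that of oebiotech_16613 was 0.68. They share bases with each other and are not independent. The study's list of androgen-responsive lncRNAs carries the last 2 as FLJ43663 on chromosome 7, a list drawn up from these same arrays.

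**Figure D3:**
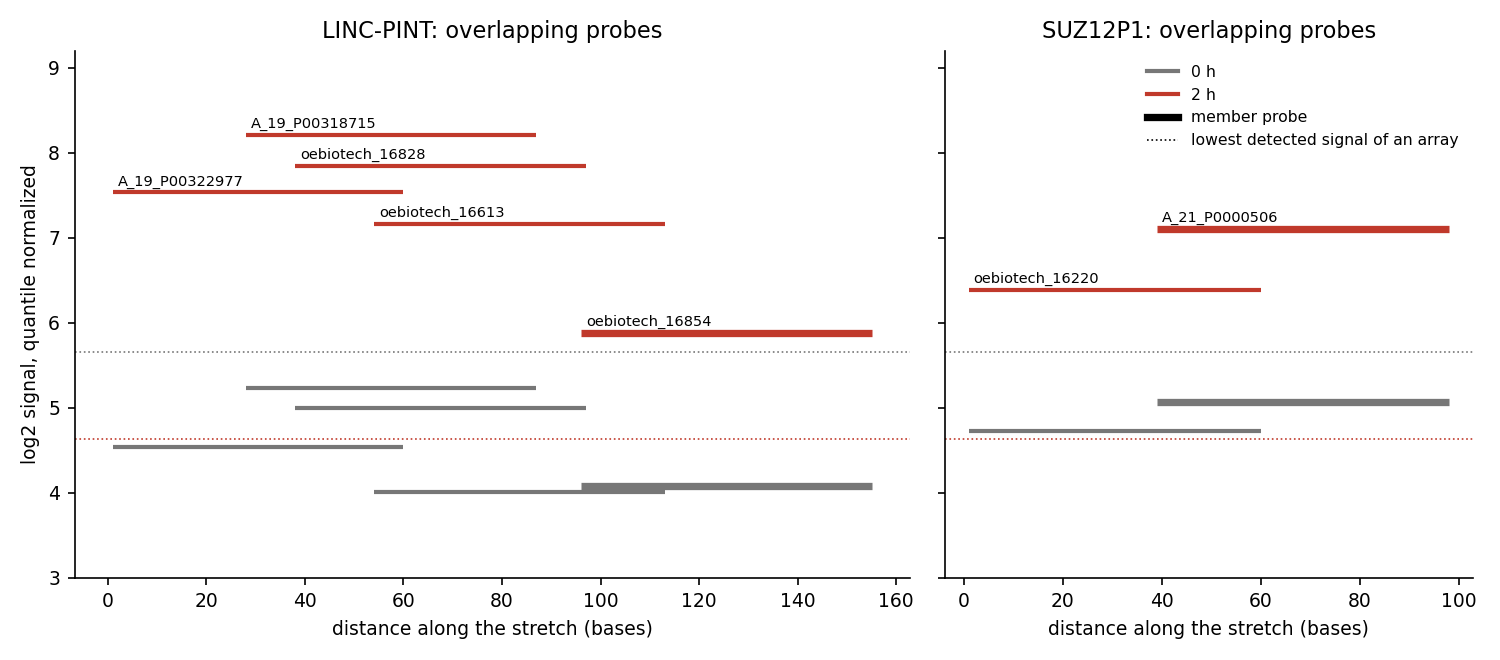
Quantile-normalized log2 signal (y axis) of the overlapping probes of LINC-PINT (left) and SUZ12P1 (right) at 0 h (grey) and 2 h (red), each drawn over the bases it covers (x axis), with thick lines for oebiotech_16854 and A_21_P0000506 and dotted lines at the lowest detected signal of each array. Every 0 h line lies under the grey dotted line at 5.65 and every 2 h line above it, with oebiotech_16854 the nearest to it at 5.88.

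The 2 arrays also differed as a whole. Spots well above background made up 21.9% of the 0 h array and 37.4% of the 2 h array, and over all detected probes the median log2 difference was 1.53 before scaling and 0.16 after quantile normalization. The 5 spike-in probes with a usable signal had a median log2 difference of -0.40, and the 4 control probes of GAPDH and PGK1, genes of glycolysis used as references, were higher by 0.05, 0.19, 0.55 and 0.63. Both arrays lay on the same slide. The part of this difference in the values of the 5 lncRNAs was not tested, since a scaling that assumes equal arrays removes it and the others keep it. Before scaling, the difference of probes detected on both arrays also depended on the signal level: the loess curve through them stood at 0.60 at the mean signal of RP1-45I4.2, at 1.33 at that of MIR17HG and at 0.83 at that of LINC00969. After subtracting this curve the log2 differences were -0.60 for RP1-45I4.2, 1.61 for MIR17HG and -0.53 for LINC00969. Only MIR17HG of these 3 was then past 2-fold. The share of detected probes with a lower difference went from 3.29% to 14.9% for RP1-45I4.2 and from 81.4% to 67.3% for MIR17HG. For LINC00969 it went from 23.9% to 16.6%. This share also counts the probes detected at 2 h only, to which the curve was not fitted.

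**Figure D4:**
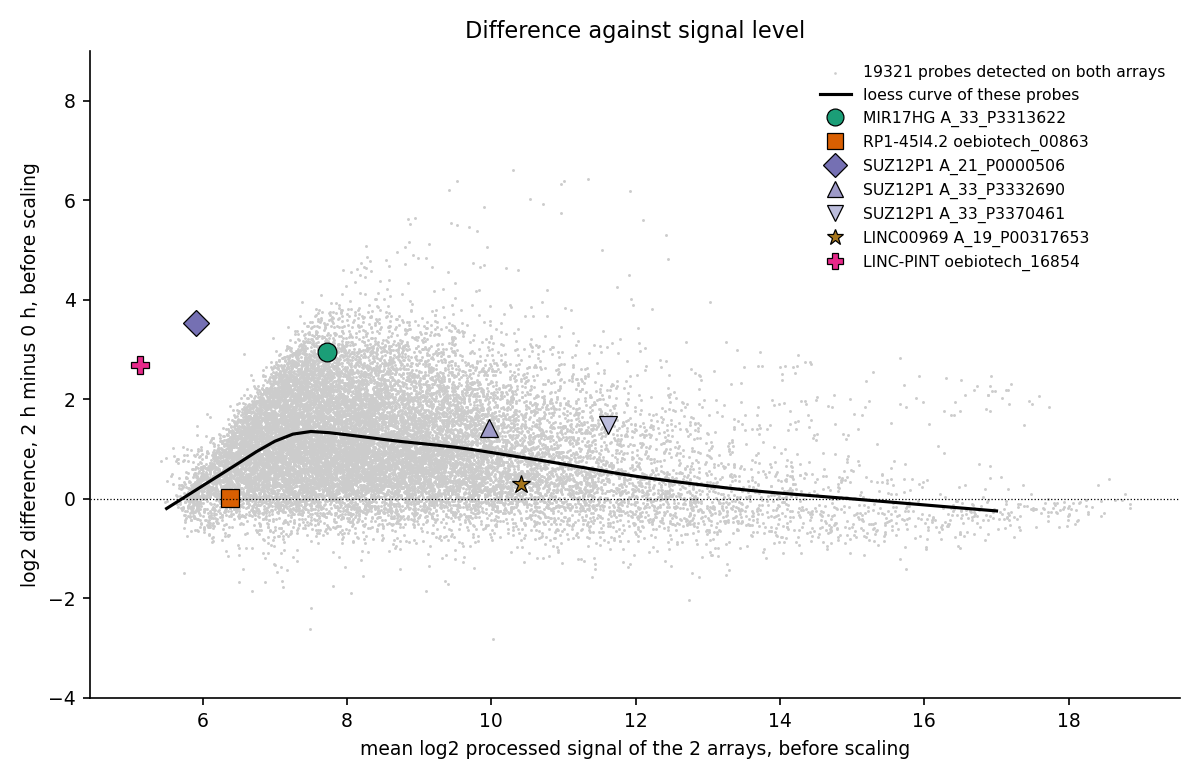
Log2 difference between 2 h and 0 h before scaling (y axis) against the mean log2 processed signal of the 2 arrays (x axis) for the 19321 probes detected on both arrays (grey points), with their loess curve (black line) and the 7 probes (symbols; SUZ12P1 A_21_P0000506 and LINC-PINT were detected at 2 h only and lie outside the cloud). MIR17HG lies 1.61 above the curve, RP1-45I4.2 and LINC00969 lie below it at -0.60 and -0.53, and the curve itself is above 0 over most of the range.

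The gap between probes of the same arrays was also taken under each scaling. The log2 difference of MIR17HG exceeded that of RP1-45I4.2 by 2.94 before scaling, by 3.02 with quantile normalization, by 2.21 with loess and by 2.01 with normexp. It exceeded that of LINC00969 by 2.64, 2.11, 2.14 and 1.74 in the same order. A shift of a whole array leaves such a gap as it is by construction, and so it does the distance from the median of all detected probes, so that 6 of the 10 scalings count as 1 here. MIR17HG was above that median by 1.42 before scaling, by 1.32 with quantile normalization, by 1.04 with normexp and by 0.83 with loess. That median includes the probes detected at 2 h only. From the loess curve through the probes detected on both arrays MIR17HG stood at 1.61. The siRNA probes of SUZ12P1 lay at -0.10 and -0.04 from the same median before scaling and at 0.20 and 0.64 with quantile normalization.

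By qRT-PCR after DHT the study describes RP1-45I4.2 and SUZ12P1 as lower and MIR17HG, LINC00969 and LINC-PINT as higher. That description covers a time series that went on to later times, whereas the arrays stop at 2 h. On the arrays, with quantile normalization, RP1-45I4.2 had a log2 difference of -1.55, and of 0.0055 before scaling. The listed probe of SUZ12P1 was higher, by at least 1.45, and its siRNA probes were higher by 0.36 and 0.80. MIR17HG was higher by 1.47, and LINC00969 differed by -0.64, and by 0.31 before scaling. LINC-PINT was higher by at least 0.23 at its primer, with no bound under 3 of the 10 scalings. At the 4 probes before it the difference was at least 1.51 to 2.56. The qRT-PCR compared treated cells with vehicle-treated cells of the same time and scaled to a reference gene, whereas the arrays compared 2 h with 0 h and were scaled over all probes, so the scales differ. For SUZ12P1 no probe held a PCR primer, and how far the probes lie from the PCR product was not tested.

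Over the wider set of 18 genes with a qRT-PCR primer or siRNA, 9 had a probe that held one, 13 probes in all. Of these 13, 8 passed detection on both arrays and 5 on the 2 h array, 4 were at least 2-fold higher by their signals and 1 was lower, RP1-45I4.2, beside the 27.9% and 13.1% of all detected probes. By lower bounds 2 of the 13 were higher and 1 was lower, beside 14.9% and 11.9%. The 7 probes of the other genes had differences by signal from -0.03 to 1.33 and a median of 0.71, and 0 of them were past 2-fold lower. Of these, 4 were detected at 2 h only, so their differences rest on 0 h signals that did not pass detection. By lower bounds 1 of the 7 was past 2-fold higher. Its undetected 0 h signal of 6.11 lay above the lowest detected signal, so its bound of 1.33 is the same as its difference by signal. Among the lncRNAs with a symbol in the study's list, the probe nearest to MIR17HG in its pair of log2 signals was A_19_P00321075 of PVT1, with 7.42 at 0 h and 8.64 at 2 h, at a distance of 0.20. The nearest to RP1-45I4.2 was A_19_P00809697 of RP11-54O7.3, with 7.30 and 5.83, at a distance of 0.05. The nearest to LINC00969 was oebiotech_09343 of RP5-860P4.2, with 10.96 and 9.71, at a distance of 0.47. For the siRNA probes of SUZ12P1, the nearest to A_33_P3332690 was oebiotech_07831 of TUG1 at a distance of 1.02, and the nearest to A_33_P3370461 was oebiotech_10713 of RP11-206L10.9 at 0.94. The distance is Euclidean over the 2 arrays, 448 probes of the list were compared, the levels also depend on how each probe binds, and the study picked the list for a change on these arrays.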

How the data were processed

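RNA of 2 LNCaP samples was measured, 1 array each. The authors deposited the output of Feature Extraction 10.7.1.1 for each array, in which the processed signal is an intensity after background subtraction and spatial detrending, with substitute values for spots without signal and no scaling between arrays. They also deposited log2 values per probe, quantile normalized with GeneSpring (version not given in the sources used here). Every value column belongs to 1 of the 2 samples.

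Quantile normalization was applied to the processed signal of every non-control spot, followed by log2. Of these spots, 2628 on the 0 h array and 2528 on the 2 h array bore an outlier flag and were dropped, and a probe's value is the mean of the rest. No spot was saturated. A lower bound replaces the undetected side by the higher of its own signal and the lowest detected signal of that array, 5.65 at 0 h and 4.64 at 2 h on the log2 scale. Probes are named by the study's symbols, by sequence matches of at least 15 bases to a primer or siRNA that run to an end of either, or through RefSeq (GRCh38.p14), whose coordinates were not used because the array design is of another build. Probe A_33_P3504522 matched 15 bases inside the LINC-PINT reverse primer, was detected on neither array and was not counted.

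The probes named were the 7 probes, those holding a primer or siRNA of the 5 lncRNAs, those sharing at least 30 bases with 1 of the 7, which only the siRNA pair of SUZ12P1 did, and the nearest listed probes. Outside this rule, and after the values had been seen, probes were added that overlap 1 of the 7, or a probe so reached, end to end by at least 16 bases, and the probes listed as FLJ43663. These probes and lists were chosen with earlier results of these data known. With 1 array per condition no p-value is given, and precision is limited by the number of arrays. The calling step was tested on simulated data, where it found 200 of 200 probes given a known change and called 0 of 19239 left unchanged. This checks only that the step runs as written. It says nothing about the spread between cultures, which 1 array per condition cannot give. Alternatives were other scalings, background correction, detection rules, averaging and thresholds, given in the closing section. Tools were Python 3.11.15, numpy 2.4.6, pandas 2.3.3, statsmodels 0.14.6 (loess), matplotlib 3.10.9, R 4.3.3 and limma 3.58.1 (normexp with an offset of 50, and a check of the quantile step).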

Additional observations from a re-analysis of the deposited data

How the results depend on the processing

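No alternative gave MIR17HG, the listed probe of SUZ12P1 or LINC-PINT a lower signal at 2 h. The count of 3 probes at least 2-fold higher became 5 with no scaling, with a shift to the spike-in probes and with a shift to the GAPDH and PGK1 control probes, 1 with normexp background correction and 2 with a threshold of 3-fold. The count of 1 probe at least 2-fold lower became 0 under these 4, with the loess correction and with a threshold of 3-fold, and 2 with the 75th percentile over all spots equalized. The fall of RP1-45I4.2 was gone with no scaling (0.0055), where its spots overlapped, and its sign turned with a shift to the spike-in probes (0.40). The median of all detected probes was 1.53, 1.93 and 1.15 with no scaling, the spike-in probes and the control probes, and -0.12 with the 75th percentile over all spots equalized, beside 0.16 with quantile normalization, and the cause of these changes was not tested. Over all detected probes the counts higher and lower were 9040 and 4266 with quantile normalization, 21060 and 138 with no scaling, 24795 and 52 with the spike-in probes, 6152 and 8095 with the 75th percentile over all spots equalized, and 3211 and 1565 with normexp. The shift to the GAPDH and PGK1 probes and the overlapping probes were added after the data were seen. A shift to β-actin was not run, since 0 probes held its primer. With 1 array per condition no array could be left out. No paired analysis was possible for the same reason. Signal near background limits LINC-PINT and the listed probe of SUZ12P1 at 0 h, where they have at most a bound. LINC-PINT had none under 3 of the 10 scalings, when detection asked for all spots and with the median of the spots.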

Other observations

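The study's list carries 7 probes as FLJ43663 on chromosome 7, of which a pair lie in the stretch of LINC-PINT described above. Of the other 5, none was detected at 0 h, A_19_P00315759 and A_19_P00320579 were detected at 2 h only, with log2 differences by signal of 1.87 and 2.10, and 3 were detected on neither array. As lower bounds A_19_P00320579 was past 2-fold, at 1.29, and A_19_P00315759 was not, at 0.17. The list was drawn from these arrays, and RefSeq does not give FLJ43663 as a name of LINC-PINT, so whether these 5 measure the same RNA was not tested.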
